A study of Danio rerio with 6 samples.

Results

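The tail fin of vehicle-treated zebrafish larvae was described 6 h after amputation, from the 3 DMSO pools among the 6 samples of a series that also holds 3 sunitinib pools. The pools were taken by their label alone, no measured value was used to choose them, and the sunitinib pools were not analysed here. The larvae came from the AB strain and the Tg(MPEG-GFP) line, in which the macrophage promoter mpeg drives a green fluorescent protein, and the labels do not say which of these went into which pool. From 2 days post-fertilization (dpf) the larvae were kept in medium with 0.1% DMSO, the solvent of sunitinib, a tyrosine kinase inhibitor. Tail fins were amputated at 3 dpf and tissue was collected at 6 h post-amputation (hpa). Each pool combined tissue of more than 60 larvae and was labelled a biological replicate, and all 3 pools shared the vehicle, the injury and the time. No uninjured fin and no earlier time was among the samples, so the values below are levels in injured tissue and hold no change with injury. With 1 group there was no test between conditions, and the spread between the 3 pools is the error given throughout (SD, n = 3).

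The larval tail fin is a thin fold of epidermis around loose mesenchyme, stiffened by collagenous rods called actinotrichia. At its base lie the end of the notochord, the spinal cord, the caudal vessels and the last blocks of trunk muscle. After amputation the epidermis closes the wound, neutrophils and then macrophages arrive, and mesenchymal cells near the stump begin to divide. The mRNA of such a piece holds the transcripts of all of these tissues in proportion to their RNA, so fewer cells of a type and less RNA per cell cannot be told apart.

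Between 13394060 and 14780202 estimated reads were assigned to genes in a pool. Of the 24923 genes in the table, 12350 reached a TPM of 1 (a length-corrected transcript abundance, scaled so that the genes of a pool sum to 1000000) in all 3 pools and 1250 had no read in any. The counts below of list members that passed 1 TPM are to be read against these 12350 of 24923 genes. Pool 1 stood apart from the others. The median gene differed 1.13-fold between pools 2 and 3, against 1.23-fold between pools 1 and 2 and 1.199-fold between pools 1 and 3. The chi-square of the read counts per gene was 7.99 per degree of freedom between pools 2 and 3, 42.6 between pools 1 and 2 and 32.2 between pools 1 and 3, so that no pair differed as little as sampling noise alone would give. Pearson's r of log2(TPM + 1) over all genes was 0.987, 0.988 and 0.994 for pools 1 and 2, 1 and 3, and 2 and 3. Results that rest on pool 1 are given with and without it below. Values of a gene are given in the order of pools 1, 2 and 3.

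The injured fin was dominated by skeletal muscle and by the protein synthesis machinery. The 100 most abundant genes held 62.7% ± 0.337 of all TPM, and 62 genes made up 50% of it. Of those 100 genes, 58 coded for cytosolic ribosomal proteins, 18 were on the skeletal muscle lists, 6 on the erythrocyte list and 4 on the superficial epidermis list. Ribosomal and muscle genes together, 187 in number, held 56.8% ± 0.749 of TPM. The 159 genes with a mean of at least 1000 TPM held 73.2% of TPM, and the 9337 genes between 1 and 10 TPM held 3.49%.

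**Figure D1:**
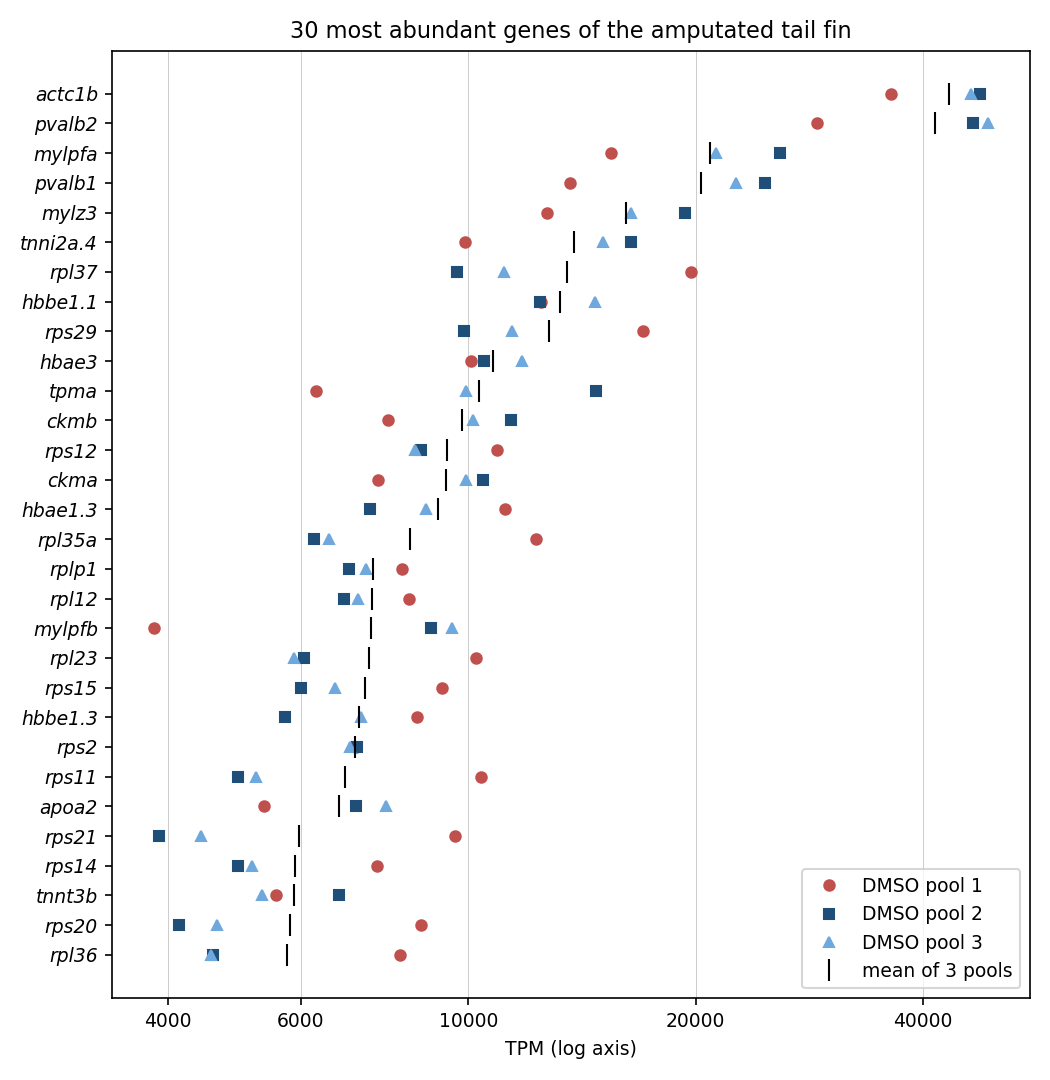
TPM on a log axis of the 30 genes with the highest mean, in each of the 3 DMSO pools (coloured points), with the mean of the 3 as a black line. Muscle genes such as pvalb2 and mylpfb lay lowest in pool 1, short ribosomal protein genes such as rpl37 and rps21 lay highest there, and rps2 was level, at 7097, 7131 and 6980.3 TPM.

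Skeletal muscle transcripts were the largest tissue component. The 3 muscle lists together held 18.98%, 28.5% and 26.5% of TPM in pools 1, 2 and 3. Their 107 genes were contractile genes listed under fast fibres, contractile genes listed under slow fibres, and genes of muscle calcium handling and energy supply. Pool 1 was the lowest, and the mean was 24.7% ± 5.02 with it and 27.5% without it. By estimated reads, which are not divided by transcript length, muscle held 29.0% ± 4.23 of reads.

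The most abundant gene of the fin was actc1b (gene ID 58114), an alpha-actin of the sarcomere, at 36274, 47553 and 46308 TPM. Next came pvalb2 (gene ID 58028), a parvalbumin that binds calcium and speeds the relaxation of fast fibres, at 28983, 46653 and 48793 TPM. The related pvalb1 was at 13631, 24747 and 22594 TPM. Parvalbumins are small and alike, and the actins are nearly identical in coding sequence, so the split of reads between copies is uncertain. The regulatory myosin light chain gene mylpfa (15456, 25886 and 21278 TPM) and the light chain gene mylz3 (12714, 19374 and 16438 TPM) followed. Then came the troponin I gene tnni2a.4, a subunit of the calcium switch of the thin filament, at 9905, 16447 and 15094 TPM. All 6 genes were lowest in pool 1.

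The thin filament was further represented by the tropomyosin tpma (6286, 14775 and 9926 TPM) and the troponin T gene tnnt3b (5557, 6744 and 5323 TPM). The creatine kinases ckmb (7833, 11403 and 10159.6 TPM) and ckma (7602, 10464 and 9933 TPM) regenerate ATP in the muscle fibre. The calcium pump of the sarcoplasmic reticulum, atp2a1, was at 3051, 4156 and 4153 TPM. The glycolytic enzyme gapdh, counted with the muscle energy genes, was at 2703, 5628 and 4709 TPM.

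Fast fibre genes outweighed slow fibre genes. The fast list held 14.5, 21.3 and 19.1 times the TPM of the slow list in pools 1, 2 and 3. The fast list also holds general sarcomere genes such as actins, titins (ttn.1 and ttn.2) and nebulin (neb), and actc1b alone was 30.9% of its TPM. How much of the ratio rests on genes that slow fibres share was not tested. Among myosin heavy chains alone, 5 fast genes (myhz1.1, myhz1.2, myhz2, myha and myhb) summed to 9.05, 12.9 and 11.6 times the 3 slow genes. The fast group holds near-identical tandem copies, so that their sum is firmer than any copy. The sum left out ns:zf-e68 of the muscle lists (689, 734 and 832 TPM). Its effective length of 5721.9 bases is close to that of myhz1.2 (5716.6 bases). It stands on the fast list as myhz1.3, matched through RefSeq names, so counting it would raise the ratios. How alike its sequence is to the other copies was not tested. Slow muscle was represented by the light chains myl10 (3881, 3603 and 3632 TPM) and myl13 (2216, 2229.7 and 2286 TPM), by the slow myosin smyhc1 (217, 177 and 218 TPM) and by the troponin C gene tnnc1b (548, 834 and 799.9 TPM). The slow list held 0.760%, 0.768% and 0.768% of TPM and so did not share the lower level of the fast list in pool 1. The slow troponin T gene tnnt1 was near the limit of detection, at 0.54, 0.8 and 0.18 TPM. Factors that direct muscle formation were low: 15 of 22 reached 1 TPM in every pool, led by six1b (22.6, 26.8 and 26.4 TPM), with myod1 at 11.7, 11.82 and 11.04 TPM and myog at 11.99, 15.5 and 12.7 TPM.

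Cytosolic ribosomal proteins held the largest share of any list of genes by function. All 80 genes matched passed 1 TPM in every pool, with a median of 3251 TPM, and 78 were above 100 TPM. Their share was 37.2%, 29.1% and 30.1% of TPM, highest in pool 1, and 29.6% on average without that pool. By estimated reads it was 12.6%. These transcripts are short, with a median effective length (the length over which a fragment can start) of 294 bases. Among the highest, rpl37 was at 19707, 9665 and 11145 TPM, rps29 at 17052, 9875 and 11427 TPM and rps12 at 10902, 8662 and 8511 TPM. The effective lengths of rpl37 and rps29 were 84.8 and 48.5 bases, so their TPM rests on a division by few bases. Among genes with longer transcripts, the small-subunit genes rps3 (3225, 3185 and 3205 TPM) and rps2 (7097, 7131 and 6980.3 TPM) were level across pools, but the large-subunit gene rpl7 was lowest in pool 1, at 1845, 3579 and 3722 TPM. The 18 ribosomal genes below 200 bases stood at a median of 1.45 times the mean of pools 2 and 3 in pool 1. The 27 of 400 bases or more stood at 1.06 times. At least 1.5 times above both others in pool 1 were 5 of the 18, 5 of the 34 of 200 to 400 bases and 0 of the 27. At least 1.5 times below both were 0, 0 and 3. Of all 3896 genes with a mean of at least 10 TPM, 3.23% were above and 11.6% below. The 3 of 27 below were thus close to the share of all genes. Copies of ribosomal genes were unequal: rps8a was at 3253 TPM on average and rps8b at 1.66 TPM, whereas rpl5a and rpl5b averaged 1462 and 1066 TPM.

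Other genes of protein synthesis varied less. The elongation factor eef1a1l1, which brings aminoacyl-tRNA to the ribosome, was at 5809, 5288 and 5181 TPM. The ribosomal scaffold gene gnb2l1 (RACK1) was at 3254, 3272 and 3293 TPM. By contrast tpt1, a conserved growth-associated protein, was at 2239.6, 4354 and 4704 TPM, with pool 1 below the others. The list of translation factors held 2.77% ± 0.0874 of TPM.

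Genes of the respiratory chain and ATP synthase that are encoded in the nucleus held 4.57%, 4.69% and 4.48% of TPM, and 92 of 97 passed 1 TPM in every pool. Genes encoded in the mitochondrial genome were not analysed here. The list was led by atp5g3b, a subunit of the proton-driven ring of ATP synthase, at 3169, 2202 and 2014 TPM, and by cox7c, a subunit of cytochrome c oxidase, at 2765, 1690.2 and 1757 TPM. Both were highest in pool 1. The electron carrier cytochrome c was represented by cycsb at 992, 1742 and 1596 TPM and the catalytic subunit of ATP synthase by atp5b at 1278, 1448 and 1358 TPM, both lowest in pool 1. Glycolysis genes outside the muscle lists held 0.354% ± 0.0438 of TPM, led by pkmb (pyruvate kinase, 316, 766 and 482 TPM).

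Among the tissue lists, erythrocyte genes held the largest share of TPM after fast muscle and the list of muscle calcium handling and energy supply. Their 33 genes held 5.85%, 4.68% and 5.57% of TPM, and the range did not meet that of the list above or below in the order of tissues. Nearly all of it was globin: 10 embryonic and larval globins summed to 58086, 46403 and 55291 TPM, against 2.12, 0.92 and 2.03 TPM for 3 adult globins. Alpha and beta globins were balanced, with alpha at 1.002, 0.985 and 0.935 times beta. The highest beta globin was hbbe1.1 at 12476, 12441 and 14713 TPM, and the highest alpha globin by its mean was hbae3 at 10076, 10487 and 11791 TPM, though hbae1.3 (11178, 7418 and 8782 TPM) was above it in pool 1. Globin copies lie in tandem and are alike, so the share of each copy is uncertain and the sums are firmer. The enzyme that starts heme synthesis in red cells, alas2, was at 105, 72.3 and 76.5 TPM, and the anion exchanger of their membrane, slc4a1a, at 54.0, 38.3 and 43.4 TPM. The iron store gene fth1a (ferritin heavy chain) was at 801, 1053 and 1192 TPM.

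Superficial epidermis, the outer layer of the larval skin, came after blood by TPM. It held 2.66%, 1.92% and 2.09% of TPM, with 34 of 40 genes above 1 TPM in every pool. By estimated reads the order was reversed in every pool. Superficial epidermis held 3.38%, 2.65% and 2.94% of reads, and erythrocyte genes 2.48%, 1.83% and 2.16%. The keratin krt4, which marks the outer layer, was at 5749.7, 3668 and 4917 TPM. The type I keratin cyt1 was at 3403, 3649 and 3355 TPM, its relative cyt1l at 3203, 4645 and 3787 TPM and krt5 at 815, 796 and 893 TPM. The S100-family calcium-binding genes icn and icn2 were highest in pool 1, at 8329, 3054 and 3866 TPM and at 3123, 1485 and 1932 TPM. Their effective lengths were 152 and 173 bases, and without genes shorter than 200 bases the list held 1.70% of TPM. The adhesion gene epcam was lowest in pool 1, at 128, 235 and 263 TPM. All 23 keratins of the table together held 1.65% ± 0.0185 of TPM, a sum that was level between pools. By estimated reads the sum was 3.44%, 2.89% and 3.08%. Single keratins varied about as often as other genes. Of 14 with a mean of at least 10 TPM, 4 (28.6%) spanned at least 1.5-fold, against 27.0% of all such genes.

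Basal epidermis, the layer of dividing skin cells on the basement membrane, held 0.272% ± 0.0326 of TPM, and 81.9% of that was the basal keratin krtt1c19e (1932, 2533 and 2215 TPM). The transcription factor tp63, which defines the basal layer, was at 16.1, 15.3 and 16.7 TPM. The hemidesmosome collagen col17a1a was at 43.0, 51.3 and 57.7 TPM, and the integrin itgb4 at 4.0, 4.52 and 5.54 TPM. Tight junctions were represented most by cldni (147.7, 200.2 and 232 TPM) and cldn1 (98.5, 85.5 and 83.6 TPM). Of 46 claudins 26 passed 1 TPM in every pool, not far from the share of all genes (12350 of 24923). Gap junction genes were few: 8 of 34 connexins passed, led by cx30.3 (13.4, 25.2 and 28.0 TPM) and cx43.4 (23.8, 19.1 and 22.8 TPM).

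Specialized cells scattered in the larval skin left small shares. Ionocytes, which exchange salts with the water, held 0.0338% ± 0.0043 of TPM. Their highest genes were subunits of the sodium pump (atp1a1a.1 at 71.7, 63.9 and 67.9 TPM), which other cells also use. The defining factors of ionocytes foxi3a (5.2, 3.92 and 4.53 TPM) and foxi3b (7.22, 5.74 and 5.87 TPM) were low. Of 5 defining markers only these 2 passed 1 TPM in every pool. The others, trpv6, slc12a10.2 and rhcgb, averaged 1.16, 0.91 and 0.527 TPM. Of the mucous cell list, 95.4% was agr2, a chaperone of mucin folding, at 169, 92.3 and 122 TPM. The mucin muc5.1 was at 2.88, 1.73 and 2.53 TPM, while spdef stayed below 1 TPM. Lateral line hair cells were represented by pvalb9, 64.1% of their list, at 388, 252 and 319 TPM, while the synaptic gene otofb was below 1 TPM in every pool and atoh1a, the factor that specifies hair cells, was at 2.11, 1.98 and 2.48 TPM.

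**Figure D2:**
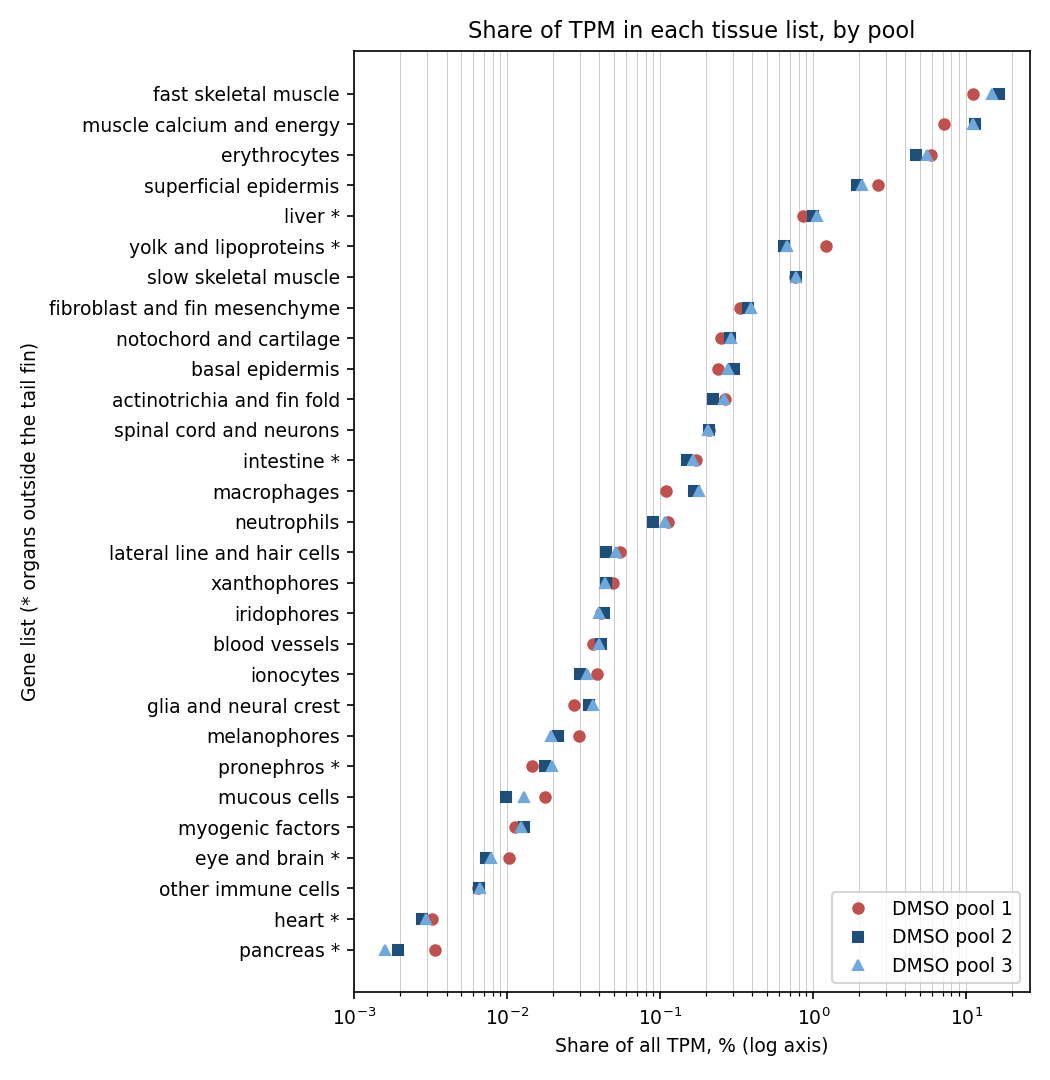
Share of all TPM, in percent on a log axis, held by each tissue list in the 3 DMSO pools, ordered by mean. Lists marked with an asterisk were written for organs outside the tail fin, and where their transcripts came from was not tested. The order ran from 16.4% of TPM for fast muscle in pool 2 down to 0.00159% for pancreas genes in pool 3, and the yolk and lipoprotein list in pool 1, at 1.202%, lay apart from the other pools.

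Genes of the fin's own skeleton were abundant. Actinodins, the structural proteins of actinotrichia, summed to 2063, 1617 and 1981 TPM. Their members and3 (762, 592 and 715 TPM), and2 (753, 563 and 715 TPM) and and1 (548, 461 and 550.2 TPM) were each lowest in pool 2. The matrix genes of the fold vwde (245.5, 284 and 257 TPM), a secreted von Willebrand factor domain protein, and tnw (173, 156 and 187 TPM), a tenascin, followed. The list of 17 genes held 0.264%, 0.220% and 0.259% of TPM.

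Fibroblasts and fin mesenchyme held 0.331%, 0.374% and 0.389% of TPM, with 50 of 60 genes above 1 TPM in every pool. By estimated reads, which weight long matrix genes more, the same list held 1.65%. Type I collagen, the main fibrillar collagen of skin and fin, was represented by col1a1a (914, 857 and 1011 TPM), col1a1b (291, 352 and 383 TPM) and col1a2 (264, 325 and 347 TPM). The collagen-binding glycoprotein sparc was at 462, 862 and 777 TPM and the matricellular gene postnb (periostin) at 350.1, 316 and 328 TPM. The mesenchymal transcription factors prrx1a (27.4, 19.4 and 20.3 TPM) and twist1a (20.1, 19.4 and 17.5 TPM) and the growth factor receptor pdgfra (6.27, 5.95 and 6.56 TPM) were present at low levels. Of 60 collagen genes, 43 passed 1 TPM in every pool, and col1a1a alone held 26.0% of collagen TPM.

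Notochord and cartilage genes held 0.274% ± 0.0211 of TPM. The cartilage and notochord collagens col2a1a (398, 489 and 497 TPM), col9a1b (313, 396 and 402 TPM) and col9a2 (163, 182 and 181 TPM) led the list. Its caveolar members cav3 (283, 324 and 339.9 TPM) and cavin4a (134, 164 and 139 TPM) are also muscle genes, and how much of this share they take from muscle was not tested. The factor that defines the notochord, ta (Brachyury), was at 13.9, 11.77 and 13.1 TPM and the signal shha at 14.9, 14.0 and 14.9 TPM. The small proteoglycan epyc was at 126, 129 and 112 TPM.

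Neural genes were also present. Whether they came from the spinal cord at the base of the fin or from other nerves was not tested. The list of spinal cord and neurons held 0.209%, 0.207% and 0.205% of TPM, with 59 of 66 genes above 1 TPM in every pool. It was led by the neuronal tubulin tubb2b (611, 539 and 505 TPM), tuba1c (280.2, 274 and 243 TPM) and the glial fatty acid carrier fabp7a (120.3, 235 and 234 TPM). The intermediate filament of glia, gfap, was at 173, 142 and 152 TPM and the RNA-binding protein of neurons elavl3 at 20.0, 17.04 and 21.7 TPM. Neural crest and glia genes held 0.0325% ± 0.00468 of TPM, led by ptgdsb.1 at 113 TPM on average. Their markers foxd3 (15.8, 19.6 and 18.4 TPM) and sox10 (4.43, 5.58 and 5.85 TPM) were low. Of the myelin gene pair, mbpb averaged 50.3 TPM, whereas mbpa was at 0.73, 2.28 and 2.49 TPM.

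Transcripts of all 3 pigment cell types were present. Xanthophores, the yellow cells, held 0.0457% ± 0.00296 of TPM, led by gch2, which starts pteridine synthesis, at 165, 187 and 179 TPM. Iridophores, the reflective cells, held 0.0412% ± 0.0015, and pnp4a, a purine enzyme that marks them, was at 21.8, 19.1 and 17.8 TPM. Of the 3 defining markers of iridophores 2 passed 1 TPM in every pool, and ltk did not, at 0.69, 0.71 and 0.73 TPM. Their highest gene adsl is a purine synthesis enzyme of all cells. Melanophores held 0.0234% ± 0.00529, and their pigment genes tyrp1b (83.1, 56.8 and 53.6 TPM), pmela (60.0, 42.2 and 36.3 TPM) and dct (45.0, 34.5 and 30.7 TPM) were each highest in pool 1.

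Leukocyte genes held small shares of TPM, from which cell numbers cannot be read. The defining genes of macrophages were at most at 19.2 TPM in any pool, whereas the neutrophil gene lyz was abundant. The macrophage list held 0.109%, 0.167% and 0.178% of TPM, but 86.0% of that was apoc1 (860.2, 1462 and 1577 TPM), an apolipoprotein that the yolk and liver also make. Without apoc1 the other 38 genes summed to 225, 203 and 207 TPM and were level between pools. The perforin-like gene mpeg1.1, whose promoter marks macrophages in the transgenic line, was at 2.83, 1.70 and 1.61 TPM. The adhesion glycoprotein mfap4 was at 14.5, 18.9 and 19.2 TPM, the macrophage factor irf8 at 2.84, 1.67 and 1.17 TPM and the receptor csf1rb at 0.21, 0.13 and 0.22 TPM. The mannose receptor mrc1b was at 1.27, 0.71 and 1.12 TPM. Neutrophils held 0.113%, 0.0895% and 0.107% of TPM, of which 75.6% was lysozyme (lyz, 865, 667 and 805 TPM). Their myeloperoxidase mpx was at 20.6, 14.3 and 17.2 TPM and the granule protease npsn at 30.6, 51.7 and 56.9 TPM. Lymphocyte genes were near 0, with rag1 at 0.07, 0.03 and 0 TPM and lck at 0.03, 0 and 0 TPM.

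Inflammatory cytokines were near the limit of detection at 6 hpa. The interleukin-1 gene il1b was at 0.48, 0.23 and 0.23 TPM, from 12, 6 and 6 estimated reads. The tumor necrosis factor gene tnfa had 1, 0 and 2 reads. No read was assigned to il6 in any pool, and a count of 0 allows up to 3 reads over the 3 pools. The neutrophil attractant cxcl8a was higher, at 3.47, 4.75 and 3.47 TPM. Of 92 interleukins, their receptors and chemokines, 22 passed 1 TPM in every pool and 66 averaged below 1 TPM. The highest were chemokines and a shared receptor chain: ccl25b (20.5, 23.5 and 29.1 TPM), cxcl14 (8.92, 19.2 and 22.5 TPM) and il10rb (12.9, 15.1 and 12.22 TPM).

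Genes known to respond to injury were present at moderate levels, with no uninjured fin to set them against. Of 55 immediate early genes, 41 passed 1 TPM in every pool and none averaged 100 TPM. The survival gene mcl1a was at 46.4, 49.2 and 42.6 TPM, the early response gene ier5 at 51.8, 38.2 and 35.5 TPM, the AP-1 gene jun at 27.0, 29.0 and 27.4 TPM, the inhibitor of NF-kB nfkbiab at 25.6, 40.9 and 28.7 TPM, and the transcription factor cebpd at 21.7, 38.8 and 32.4 TPM. Among 80 wound and regeneration genes, 52 passed, led by the growth factor mdka (227, 189 and 181 TPM) and the galectin lgals2a (77.8, 131 and 135 TPM). Matrix metalloproteinases, which cut the extracellular matrix, were led by mmp2 (61.7, 47.9 and 53.8 TPM), mmp13a (31.3, 16.48 and 16.54 TPM) and mmp9 (23.5, 12.7 and 14.8 TPM). Both mmp13a and mmp9 were at least 1.5 times higher in pool 1 than in either other pool. Annexin transcripts, whose proteins bind membranes and help to reseal them, were led by anxa1a (79.6, 179.8 and 219 TPM) and anxa1c (89.6, 128 and 176 TPM), both lowest in pool 1.

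Lipid carriers and the receptors that control them were mostly low. The muscle and heart carrier fabp3 was at 945, 1028 and 955 TPM and held 87.1% of a list of 16 genes. The carrier fabp11a was at 75.1, 114 and 125 TPM. The nuclear receptor pparg was at 0.92, 0.81 and 1.04 TPM, from 20, 18 and 23 reads, and the fatty acid transporter cd36 at 0.49, 0.95 and 0.87 TPM.

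Of 57 cell cycle genes 56 were above 1 TPM in every pool, and the list held 0.299% ± 0.0146 of TPM. Its highest gene, hmgn2, made up 23.3% of that and its top 5 genes 64.2%. What share of the cells was dividing was not tested. The chromatin protein hmgn2 was at 619, 655 and 819 TPM and hmgb2a at 314, 441 and 454 TPM. The clamp of the replication fork, pcna, was at 143, 206 and 134 TPM. Among housekeeping cytoskeleton genes the cytoplasmic actins actb1 (3656, 3227 and 3212 TPM) and actb2 (3404, 2753 and 3024 TPM) and the actin-binding peptide gene tmsb4x (2454, 3053 and 3923 TPM) led. Proteasome genes held 0.346% ± 0.0181 of TPM, with 45 of 51 above 1 TPM in every pool. Integrins were low, at 0.0133% ± 0.000718, led by itgbl1, a relative of the beta chains, at 17.5, 18.4 and 13.6 TPM. Blood vessels held 0.0391% ± 0.00246, with the water channel aqp1a.1, shared with red cells, at 129, 142 and 141 TPM. Of the 4 defining vessel markers vsg1 (plvapb) was the highest, at 36.4, 31.5 and 24.8 TPM. The endothelial receptor kdrl was at 3.73, 3.58 and 4.64 TPM, flt4 at 2.94, 2.63 and 2.48 TPM and cdh5 at 1.16, 0.81 and 1.43 TPM.

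Hox genes, whose paralog number follows the position along the body axis from head (low) to tail (high), gave a posterior profile. The 23 genes of paralog groups 9 to 13 held 71.6%, 71.6% and 69.7% of the 643, 625 and 627 TPM of all 49 hox genes, and 22 of them passed 1 TPM in every pool. Group 9 was the highest, at 138, 159 and 159 TPM, and its range did not meet that of group 10 (106, 83.7 and 82.9 TPM). Groups 12 (81.6, 73.9 and 69.9 TPM) and 13 (72.0, 81.9 and 75.5 TPM) overlapped. These are sums over unlike numbers of genes and not levels per gene. There were 5 genes in group 9, 4 in group 10, 3 in group 12, 6 in group 13 and 4 in group 3. The highest genes were hoxc12a (49.96, 42.6 and 37.7 TPM), hoxd9a (23.8, 39.7 and 42.3 TPM) and hoxa10b (41.6, 30.3 and 31.6 TPM). Away from the posterior groups, group 3 stood out at 63.7, 65.4 and 64.7 TPM, from hoxc3a (21.4, 24.1 and 21.9 TPM), hoxd3a (20.6, 22.3 and 23.2 TPM), hoxb3a and hoxa3a.

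**Figure D3:**
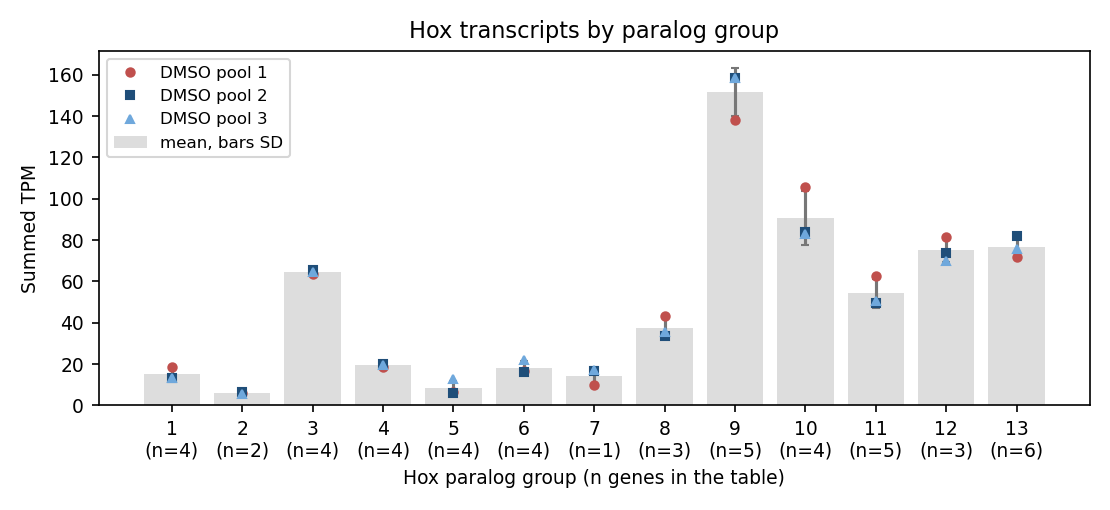
Summed TPM of the hox genes of each paralog group in the 3 DMSO pools (points), with the mean (bars from 0) and SD. Groups 9 to 13 lay between 49.6 and 159 TPM, and group 3, at 63.7 to 65.4 TPM, was above its neighbours.

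Transcripts on lists written for organs outside the tail fin were also measured. Lists for liver, yolk and lipoproteins, intestine, pancreas, heart, eye and brain, and kidney, 207 genes together, held 2.26%, 1.82% and 1.93% of TPM. Most of it came from apolipoproteins: apoa2, a component of high-density lipoprotein, was at 5356, 7105 and 7774 TPM, apoa1a at 4872, 2541 and 2511 TPM and apoa1b at 4895, 1597 and 1955 TPM. Plasma protein genes of the liver followed, with the retinol carrier rbp4 at 1264, 1593 and 1545 TPM and the iron carrier tfa (transferrin) at 535, 253 and 251 TPM. The defining markers of these organs ran from absent to abundant. Those above 1 TPM in every pool were 2 of 3 for liver, 2 of 3 for yolk, 1 of 3 for intestine, 0 of 4 for pancreas, 1 of 3 for heart, 1 of 4 for eye and brain and 3 of 3 for the pronephros. Among the low ones, no read was assigned to the liver carrier fabp10a in any pool, the cardiac light chain myl7 was at 0.23, 0 and 0 TPM, the intestinal villin vil1 at 0.97, 1.03 and 1.24 TPM, rhodopsin (rho) at 0.81, 0.62 and 0.75 TPM and trypsin (try) at 0.88, 0.58 and 0.58 TPM. Higher were the liver markers tfa and fga (110.2, 60.6 and 66.9 TPM), the yolk marker apobb.1 (178, 91.6 and 119 TPM), the intestinal marker fabp2 (84.2, 91.0 and 100.5 TPM) and a further intestinal carrier, fabp1b.1 (1061, 661 and 759 TPM). The pronephric duct runs to the cloaca at the base of the tail, and its cadherin cdh17 was at 25.5, 13.3 and 16.4 TPM. Where these transcripts came from was not tested.

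Spread between pools was then described gene by gene. Over 16206 genes with enough reads, the biological coefficient of variation that edgeR estimated from the counts was 0.172, and it was 0.0981 for pools 2 and 3 alone. Of 3896 genes with a mean of at least 10 TPM, 1051 (27.0%) had a highest pool at least 1.5 times the lowest. Without pool 1 that count was 37, without pool 2 it was 741 and without pool 3 it was 876. Pool 1 was at least 1.5 times below both others for 451 genes (11.6%) and above both for 126 genes (3.23%). Pool 2 was above both others for 10 genes (0.257%) and below for 5 (0.128%), and pool 3 above for 5 (0.128%) and below for 6 (0.154%). The median spread was similar at low and high levels: the coefficient of variation of TPM was 13.6% for genes of 10 to 100 TPM and 14.2% for genes of at least 1000 TPM, where counting error would give 4.23% and 0.65%.

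How pool 1 differed from the others varied with the effective length of the transcript. Among genes below 200 bases 20.0% were above both others in pool 1 and 3.08% below, and among genes of 400 to 800 bases 1.05% were above and 24.8% below. Genes of 1600 to 3200 bases had 4.02% above and 2.38% below. The median of log2(TPM over the mean of the pools) in pool 1 was 0.22 below 200 bases, -0.22 from 400 to 800 bases and 0.09 from 1600 to 3200 bases. Its part in the tissue shares was not tested. Without the 65 genes below 200 bases 1018 of 3831 genes varied 1.5-fold. That step left in the genes of 400 to 800 and of 800 to 1600 bases, of which 165 and 240 were below in pool 1. It therefore cannot show how much of the spread goes with length.

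**Figure D4:**
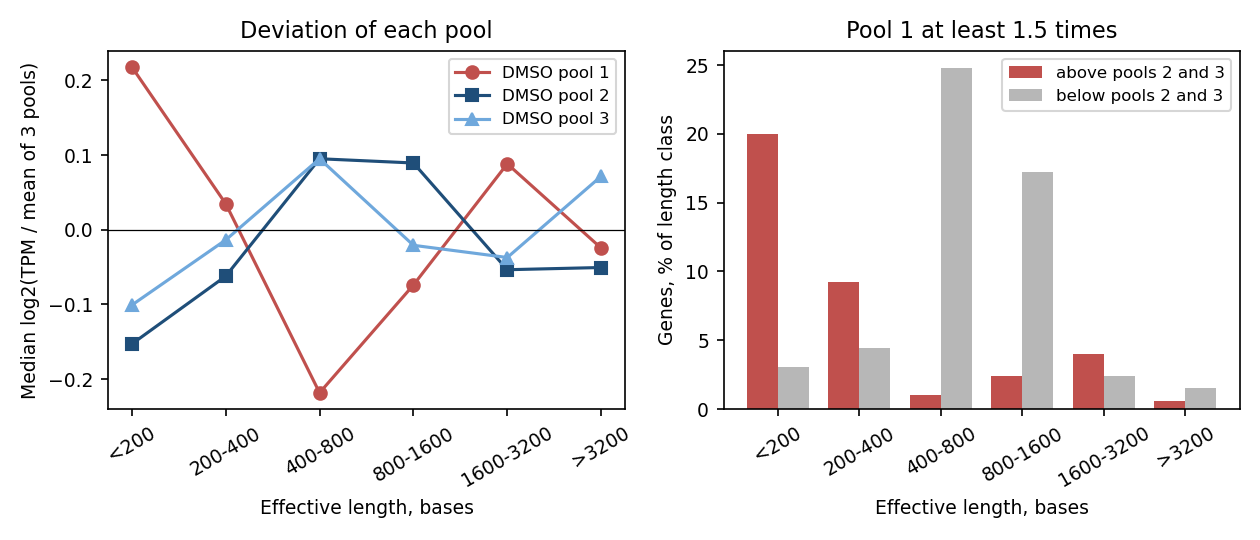
Left, the median of log2(TPM / mean of the 3 pools) in 6 classes of effective length in bases, for each DMSO pool and genes with a mean of at least 10 TPM. Right, the percent of genes in each class for which pool 1 was at least 1.5 times above or below pools 2 and 3. Pool 1 swung by class, with 24.8% of genes of 400 to 800 bases below the other pools, while the medians of pools 2 and 3 stayed between -0.15 and 0.10.

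Many liver genes lay above the others in pool 1, although the liver list as a whole did not. It held 0.856%, 0.994% and 1.06% of TPM, lowest in pool 1, where its highest genes apoa2 and rbp4 were lowest, and 0.796%, 0.674% and 0.718% of estimated reads. Of 16 liver genes with a mean of at least 10 TPM, 8 were at least 1.5 times above both others and 1 below, against 3.23% and 11.6% of all genes tested. The median member stood at 1.63 times the mean of pools 2 and 3, against 0.981 times for all genes. The 8 included tfa and the fibrinogen chains fga (110.2, 60.6 and 66.9 TPM) and fgb (101, 55.6 and 50.6 TPM). Also among them were the protease precursors f2 (prothrombin, 55.5, 20.8 and 25.0 TPM) and plg (plasminogen, 37.3, 14.9 and 16.53 TPM). The rest were the complement genes c3a.1 (36.2, 14.7 and 19.3 TPM) and c9 (68.9, 33.8 and 39.0 TPM), and itih2, which modifies hyaluronan (24.9, 10.9 and 12.6 TPM). The effective lengths of the 8 ran from 1459 bases for fgb to 4801 bases for c3a.1. The exception apom, a carrier of sphingolipid, was at 50.7, 105 and 104 TPM and has an effective length of 503.9 bases. The yolk and lipoprotein list held 0.658% of TPM on average without pool 1, against 1.202% in pool 1. Of its 7 genes of at least 10 TPM 3 were above in pool 1 (apoa1a, apoa1b and apoeb) and 1 below (apoea).

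Muscle genes were lower in pool 1 by level more than by count. Of 79 muscle genes of at least 10 TPM, 11 (13.9%) were at least 1.5 times below both others, close to the 11.6% of all genes tested, and none was above. The median member stood at 0.781 times the mean of pools 2 and 3. The 11 included pvalb1, pvalb2, tnni2a.4, tpma and gapdh, the Z-disc gene myoz1b (250.0, 636 and 601 TPM) and mylpfb (3837, 8935 and 9526 TPM). Genes of iron and antioxidant defence had 9 of 28 below, among them the glutathione transferase gstp1 (362, 662 and 729 TPM) and the selenoprotein sepw1 (272, 441 and 499.6 TPM), and 1 above, gpx4a (524, 223 and 213 TPM), which reduces lipid peroxides. The median effective length of that list was 714.9 bases. In pool 1 32.1% of its genes were below, against 24.8% of all genes of 400 to 800 bases and 11.6% of all genes. Its members were not matched to other genes by length, so the part of length in this count was not tested. Of 14 annexins 4 (28.6%) were below. The median effective length of the annexin list was 1134 bases, and 17.2% of all genes of 800 to 1600 bases were below.

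**Figure D5:**
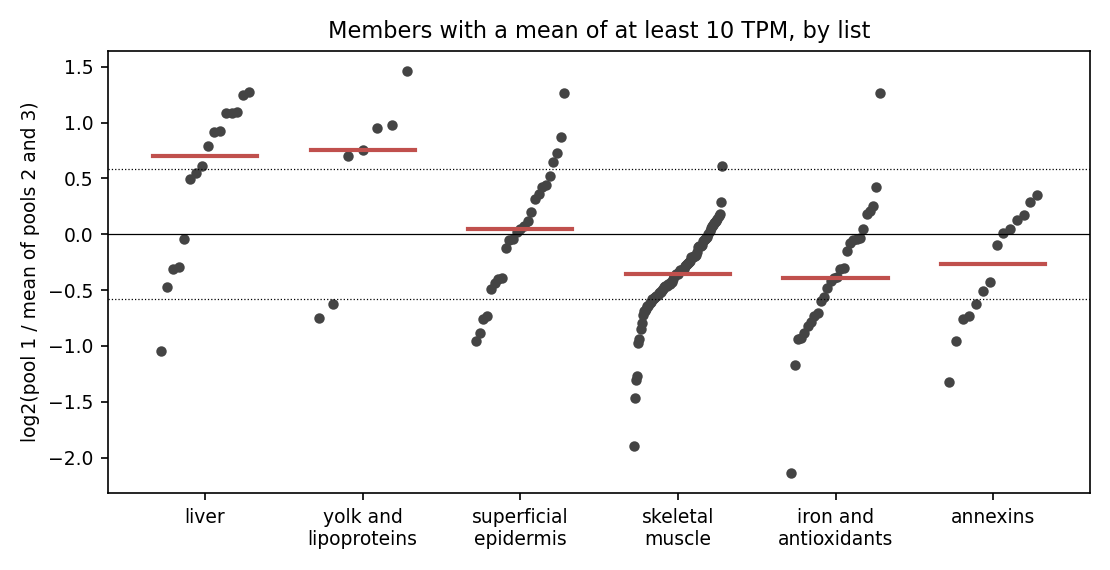
Each point is a gene with a mean of at least 10 TPM, placed by log2 of its TPM in pool 1 over the mean of pools 2 and 3, within 6 lists. Red lines are list medians and dotted lines mark 1.5-fold. Liver and yolk genes lay mostly above 0 (medians of 1.63 and 1.69 times), and muscle genes mostly below (0.781 times).

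Among genes of at least 50 TPM, the widest spread was that of the beta globin hbbe3, at 996, 296 and 509 TPM, a 3.37-fold range. Next came apoa1b at 3.06-fold and gyg1b, which primes glycogen synthesis, at 29.8, 83.5 and 53.3 TPM, a 2.80-fold range. The annexin anxa1a spanned 2.75-fold, icn 2.73-fold and the muscle stress gene ankrd1b (66.0, 173 and 141 TPM) 2.62-fold. The mitochondrial ADP/ATP carrier slc25a4 was at 666, 1688 and 1167 TPM. Also in this group were dnase1l4.1 (38.3, 83.8 and 99.6 TPM), the prefoldin subunit pfdn5 (52.6, 120.1 and 137 TPM), the ribosome assembly factor rsl24d1 (77.3, 177 and 200.4 TPM), myoz1b and LOC110438318 (211, 505 and 533 TPM). Of these 12 genes, pool 1 was the highest for 3 and the lowest for 9.

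The 8 most even genes of that level spanned at most 1.03-fold. The narrowest range was 1.01-fold, for ngs (199, 198 and 198 TPM) and for glud1b, glutamate dehydrogenase, at 177, 177 and 176 TPM. The proteasome subunit psmd3 (91.9, 93.05 and 92.8 TPM), the mitochondrial membrane protein tspo (76.7, 78.0 and 78.2 TPM) and the actin regulator marcksl1a (101, 98.7 and 101 TPM) were also level, as were gnb2l1, rps3 and rps2.

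Zebrafish keep many genes as a pair of copies from an ancient genome duplication. In this tissue the order of the copies was usually the same in all 3 pools. Of 135 pairs on the lists with at least 10 TPM in a copy, 123 had the same copy higher in all 3 pools, the a copy in 68 and the b copy in 55, and in 41 the means differed by 10-fold or more. The sarcomeric actin pair was unequal, with actc1b at 43379 and actc1a at 1301 TPM on average. The fast myosin binding protein gene mybphb averaged 1212 TPM and mybpha 1.87 TPM. The desmin copies, the muscle intermediate filament, averaged 142 TPM for desma and 0.413 TPM for desmb, and the ferritin copies 1015 TPM for fth1a and 4.65 TPM for fth1b. For periostin, postnb averaged 331 and postna 1.08 TPM, and for type IX collagen col9a1b averaged 370.1 and col9a1a 0.583 TPM. By contrast ckma and ckmb averaged 9333 and 9798 TPM, and the respiratory complex III genes uqcrc2a and uqcrc2b 169 and 178 TPM. In 12 pairs the higher copy differed between pools. The means of these pairs were close, at most 1.46-fold apart (cldn7a and cldn7b). In 11 of the 12 pairs pool 1 stood against the other pools. Among them, apoeb was the higher in pool 1 and apoea in pools 2 and 3, gpx4a was the higher in pool 1 and gpx4b in the others, and atpif1a, an inhibitor of ATP synthase, was the higher in pool 1 and atpif1b in the others.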

How the data were processed

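TRIzol-extracted total RNA of the 3 DMSO pools had been enriched for mRNA, made into strand-specific libraries and read as 150 bp pairs on an Illumina NovaSeq instrument, with GRCz11 named as genome build in the submitters' processing notes. Aligner and counter: not given in the sources used here. As deposited, the gene table held, per gene and sample, the expected counts (estimated read counts, mostly whole numbers), the FPKM and the TPM that the authors computed from them, with NCBI gene IDs. Another 23 columns of the table (the sunitinib samples, group means and the authors' own comparison) were not used.

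Levels were taken as deposited TPM. The effective length was computed from count, FPKM and column total. Estimated counts were rounded to whole numbers for edgeR 4.0.16 (R 4.3.3), which gave the coefficient of variation after filterByExpr and TMM scaling and was tested on simulated data. Other steps used Python 3.11.15 and pandas 2.3.3. A gene was called detected at a TPM of at least 1 in all 3 pools, and varied where the highest pool was at least 1.5 times the lowest at a mean TPM of at least 10. No test between groups was made.

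Genes were grouped by 38 lists of symbols and 12 name patterns, written by hand for larval tissues and functions. Of 1346 listed symbols 1232 matched the table as written, 71 through RefSeq names (GRCz12tu annotation, used for names only) and 43 did not match. Members and lists were chosen with earlier results of these data known, and 1 globin (LOC100334599, named hbae1.3 in RefSeq) was added after values were seen. The text named the 30 genes of highest mean TPM, leading members and defining markers of each list, the 12 widest and 8 narrowest ranges above 50 TPM, copy pairs (symbols that differ only in a last a or b, 6 pairs of different proteins left out, ratios with 0.01 TPM added) and genes the study followed. The genes of the liver, muscle and antioxidant lists that set pool 1 apart, and the heat shock and islet genes, were chosen after their values were seen. Alternatives were reads in place of TPM, muscle genes taken out, other thresholds and scalings, each pool left out, and genes under 200 bases left out (added after seeing the data).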

Additional observations from a re-analysis of the deposited data

How the results depend on the processing

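Only 3 pools of 1 group were analysed, so the limits are those of their spread. No paired analysis was possible because only 1 group was analysed. Genes detected numbered 5733 at 5 TPM and 12536 to 12683 with a pool left out. The share of the 100 most abundant genes was 48.5% of estimated reads, 65.0% of TPM without genes under 200 bases and 62.5% to 62.9% with a pool left out, and by reads 110 genes made up 50%. By estimated reads ribosomal proteins held 12.6%, erythrocyte genes 2.16%, fin mesenchyme 1.65%, respiratory genes 2.62% and superficial epidermis 2.99%. With the muscle genes taken out they held 42.5%, 7.11%, 0.487%, 6.103% and 2.93% of the remaining TPM, and without genes under 200 bases 26.1%, 6.11%, 0.414%, 4.06% and 1.70%. With a pool left out all 51 shares moved by less than 1 SD, as any mean of 3 values must. Genes that varied numbered 223 at a ratio of 2, 4038 of 13233 at a mean of 1 TPM, 310 of 1097 at 50 TPM, and 37 to 876 with a pool left out, 37 being the count without pool 1. The count was 1046 and 1048 with TMM and upper-quartile scaling of the reads. The coefficient of variation ran from 0.0981 (without pool 1) to 0.205 with a pool left out.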

Other observations

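Some heat shock genes and islet hormones were also higher in pool 1. These genes were picked after their values were seen. The inducible chaperones hsp70l (24.6, 4.04 and 6.26 TPM in pools 1, 2 and 3) and hsp70.3 (27.7, 5.19 and 9.42 TPM) stood at 4.79 and 3.79 times the mean of pools 2 and 3 in pool 1. Both were below 10 TPM in pools 2 and 3 and reached a mean of 10 TPM only through pool 1. Both copies are alike, so their reads may be shared. The constitutive chaperone hspa8 was at 1410, 972 and 1079 TPM and hsp90ab1 at 646, 513 and 518 TPM. The median of the 33 chaperone genes of at least 10 TPM, hsp70l and hsp70.3 included, stood at 1.23 times. The median for all genes was 0.981 times. Insulin (ins) had 43, 1 and 0 reads, the glucagon gene gcgb 18, 0 and 0 reads and the somatostatin gene sst2 13, 1 and 0 reads. Their relatives gcga (1.79, 2.55 and 2.8 TPM) and sst1.1 (6.31, 8.1 and 6.16 TPM) had no such gap. Lens crystallins, 22 genes, summed to 65.2, 38.8 and 37.5 TPM. In which larvae or tissue of pool 1 these transcripts arose was not tested.

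Of the 100 most abundant genes, 5 were on no list: zgc:171772, to which the table gives no function, zgc:114188, likewise unnamed, slc25a5, which exchanges ADP and ATP across the inner mitochondrial membrane (4960, 4753 and 3943 TPM), ppiaa, a peptidyl-prolyl isomerase, and nme2b.2, a nucleoside diphosphate kinase.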
